A study of Mus musculus with 19 samples.

Results

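The miR-15, miR-16, miR-195 and miR-497 family was followed through small RNA libraries of the mouse hippocampal CA1 region. Its members were taken by name: every listed microRNA called miR-15a, miR-15b, miR-16, miR-195 or miR-497, both arms included. This gave 11 of the 1148 names in the count tables, of which 8 passed a low count filter that kept 509 names for testing. The 3 that did not pass were miR-15a-3p, miR-16-2-3p and miR-497-3p. All libraries came from wild-type C57B/6JRj mice, and the CA1 had been cut out under a microscope. The young vehicle group (n = 8) was 3 months old and drank 18 g/L cyclodextrin in water, for a time that the labels do not give. The aged vehicle group (n = 5) was 20 months old and drank the same vehicle for 4 weeks. The aged SAHA group (n = 6) was also 20 months old and drank 0.67 g/L SAHA, an inhibitor of histone deacetylases also known as vorinostat, in 18 g/L cyclodextrin for 4 weeks. Every group therefore carried cyclodextrin, and no young group received SAHA, so a SAHA effect could be measured only in aged mice. The design implies a comparison of age in vehicle mice, one of SAHA in aged mice, and one of aged SAHA mice with young vehicle mice, in which age and drug change together and cannot be told apart. The labels do not say whether each library is 1 animal, so p-values measure the spread between these libraries.

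MicroRNAs guide Argonaute proteins to messenger RNAs, mainly through the seed, the bases from position 2 to position 8. Members of this family carry the same seed and are best known for restraining cell cycle and survival genes, among them cyclin D1, cyclin E1 and Bcl2. In the brain miR-195 has been studied for the amyloid-processing enzyme Bace1, and miR-16 for the serotonin transporter. The hairpins lie in clusters that each pair a miR-15-like gene with a miR-16-like gene.

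The 5p arms carry the shared seed and nearly all of the family's reads, so they are printed from RefSeq (GRCm38.p6), 5′ to 3′, with the seed in capitals. All 11 names matched an entry. RefSeq lists miR-195 under the name miR-195a and miR-497 under miR-497a.
miR-15a-5p: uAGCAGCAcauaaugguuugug
miR-15b-5p: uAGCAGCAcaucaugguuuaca
miR-16-5p: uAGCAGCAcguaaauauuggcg
miR-195-5p: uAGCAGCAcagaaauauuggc
miR-497-5p: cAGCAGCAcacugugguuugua
Outside the seed some 5p arms are closer to each other than to the rest. Aligned from the 5′ end, miR-16-5p and miR-195-5p differed at 2 of 21 bases, G10A and U11G, counting from 1 at the 5′ end of miR-16-5p. miR-15a-5p and miR-15b-5p differed at 4 of 22 bases, and miR-497-5p differed from them at 5 and 6 of 22. The most distant pair, miR-16-5p and miR-497-5p, differed at 11 of 22. Reads of miR-16-5p cannot be assigned to a gene copy, because Mir16-1 and Mir16-2 give the same 22 bases. The 3p arms tell the copies apart, and their seeds differ from AGCAGCA and from each other:
miR-16-1-3p: cCAGUAUUgacugugcugcuga
miR-16-2-3p: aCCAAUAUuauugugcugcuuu

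The family sits in 3 clusters, given here in GRCm38 coordinates. Mir15a (chr14:61632038-61632096, minus strand, spanning its 2 mature arms) and Mir16-1 (chr14:61631880-61631972, minus strand) lie 65 bases apart in Dleu2, a noncoding gene. Mir15a was intronic in all 8 Dleu2 transcripts that span it, and Mir16-1 was exonic in 1 of 9. Mir15b (chr3:69009772-69009835, plus strand) and Mir16-2 (chr3:69009902-69009996, plus strand) lie 66 bases apart in introns of Smc4, which codes for a condensin subunit. Mir497 (chr11:70234717-70234800, plus strand) and Mir195a (chr11:70235042-70235135, plus strand) lie 241 bases apart, with no other annotated gene over them.

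The libraries held 3585489 to 6808281 counts. Levels are given in CPM, each count relative to its library total, with library sizes scaled by the trimmed mean of M-values (TMM), and the 19 libraries had 0.927% ± 0.0990 (SD) of their counts in the family. That share was 0.867% ± 0.104 in young vehicle, 0.953% ± 0.0363 in aged vehicle and 0.985% ± 0.0921 in aged SAHA libraries. The ranges overlapped, and the share was not tested.

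miR-16-5p dominated the family in every library. It took 91.05% of family counts on average (88.8% to 92.1%), and it was the 27th most abundant of the 509 tested microRNAs. In young vehicle libraries its level had a lowest value of 6472, a median of 8051 and a highest of 9168 CPM. The 5 aged vehicle libraries held 8719, 8548, 8703, 8216 and 9015 CPM. In aged SAHA libraries it had a lowest value of 7820, a median of 8534 and a highest of 10845 CPM. The 5 aged vehicle libraries lay inside the young range, and 2 aged SAHA libraries, at 10845 and 9333 CPM, were above every young one.

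miR-15a-5p, the partner of miR-16 in Dleu2, was near miR-195-5p in abundance. Its young vehicle libraries ran from 235 through a median of 279 to 293 CPM. The aged vehicle libraries held 288, 346, 316, 279 and 284 CPM. The aged SAHA libraries ran from 299.6 through a median of 332 to 428 CPM. All 6 aged SAHA libraries were above all 8 young ones, while the aged vehicle libraries overlapped with both groups.

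miR-195-5p and miR-497-5p, from the cluster on chromosome 11, ranked 147th and 170th. Young vehicle libraries had a lowest value of 277, a median of 303 and a highest of 355 CPM of miR-195-5p. The aged vehicle libraries held 289, 318, 278, 238 and 272 CPM. The aged SAHA libraries ran from 222 through 258 to 316 CPM. The groups overlapped, with 4 of 6 aged SAHA libraries below all young ones.

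For miR-497-5p the young vehicle libraries ran from 176 through 186 to 216 CPM. The aged vehicle libraries held 191, 191, 178, 152.5 and 157 CPM. The aged SAHA libraries ran from 120.3 through 158 to 182 CPM. Of the 6 aged SAHA libraries, 5 were below all young ones, and the sixth was inside the young range.

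miR-15b-5p, from the Smc4 cluster, was over 10 times scarcer than miR-15a-5p. Its young vehicle libraries ran from 17.6 through 20.1 to 24.0 CPM. The aged vehicle libraries held 16.6, 25.2, 16.2, 15.7 and 19.5 CPM. The aged SAHA libraries ran from 18.8 through 19.6 to 37.0 CPM. Only aged SAHA replicates 1 and 6, at 37.0 and 29.6 CPM, stood above the other groups.

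The 3p arms were scarce. miR-195-3p averaged 25.6 CPM, miR-16-1-3p 6.69 CPM and miR-15b-3p 2.91 CPM over the 19 libraries. The untested arms gave between 1 and 13 counts a library. miR-15a-3p ran from 0.573 to 2.47 CPM, miR-16-2-3p from 0.192 to 1.94 CPM and miR-497-3p from 0.360 to 2.26 CPM. Differences between groups were not tested for these names.

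**Figure D1:**
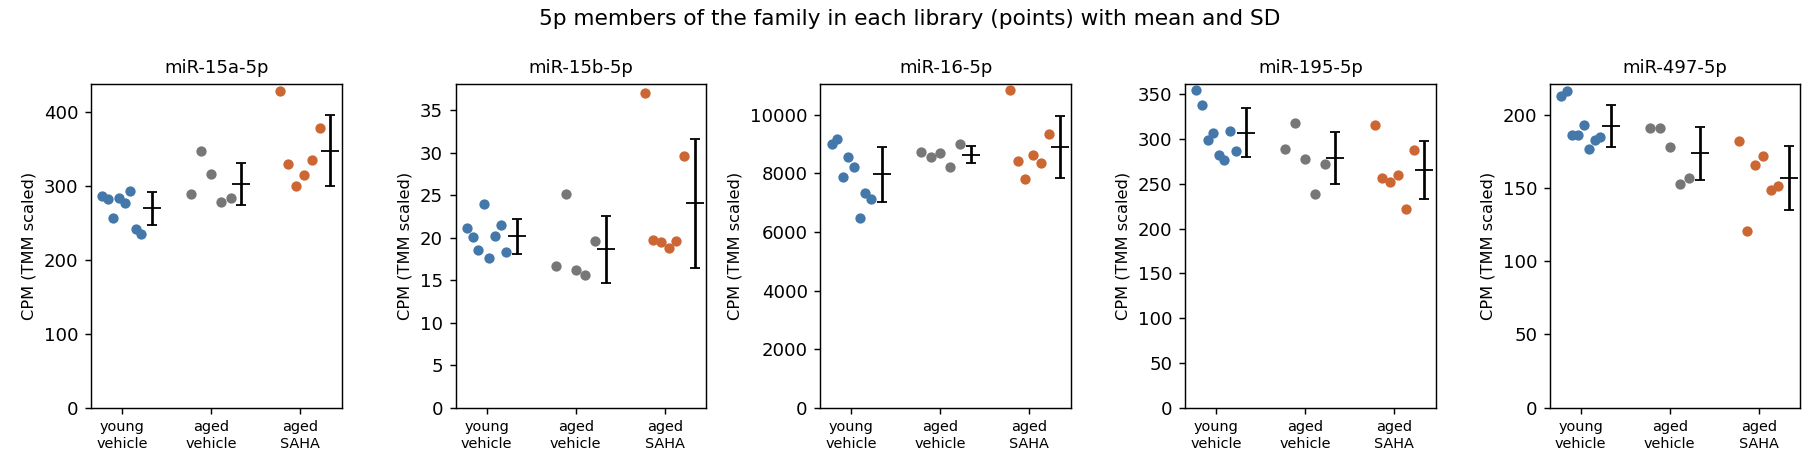
Levels of the 5 members from 5p arms in each library, in TMM-scaled CPM on linear axes that start at 0 and differ between panels, with 1 point per library in the young vehicle, aged vehicle and aged SAHA groups and the mean and SD of each group beside its points. The 6 aged SAHA points of miR-15a-5p, from 299.6 to 428 CPM, lie above all 8 young points.

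The order of the levels was stable at the top and changed in the middle. miR-16-5p was followed by miR-15a-5p and miR-195-5p, whose ranges overlapped, then by miR-497-5p, then by miR-195-3p and miR-15b-5p, whose ranges also overlapped, and then by miR-16-1-3p and miR-15b-3p. miR-15a was above miR-15b, and miR-195 above miR-497, in 19 of 19 libraries. Counts of short RNAs also depend on how well each sequence ligates, so this order describes the libraries rather than molecules per cell.

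For the comparison of age, none of the 8 tested members differed between aged and young vehicle mice. edgeR's quasi-likelihood test with Benjamini-Hochberg adjustment over all 509 names called 2.16% of them, 1 higher and 10 lower, and 0 of 8 members. No member had an unadjusted p under 0.05, against 15.7% of all names, and DESeq2 and limma-voom each called 0 members. miR-15a-5p averaged 269 ± 21.9 CPM (SD, n = 8) in young and 303 ± 28.4 (n = 5) in aged vehicle libraries, a log2 fold change of 0.17 ± 0.09 (SE, adjusted p = 0.325). miR-16-5p differed by 0.12 ± 0.08 on the log2 scale (adjusted p = 0.491). miR-195-5p differed by -0.14 ± 0.09 (adjusted p = 0.426) and miR-497-5p by -0.15 ± 0.09 (adjusted p = 0.423). Thus 4 members had positive and 4 negative values, with a median log2 fold change of 0.0046 against -0.0030 over all names tested. No member separated the groups in CPM, where 3.14% of all names did. The 95% intervals of these differences ran from -0.0091 to 0.35 for miR-15a-5p, from -0.05 to 0.29 for miR-16-5p, from -0.32 to 0.04 for miR-195-5p and from -0.33 to 0.04 for miR-497-5p.

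In aged mice, SAHA likewise changed none of the 8 tested members past the threshold. The background of calls was 4.32% of the 509 names, 6 higher and 16 lower. miR-15a-5p averaged 303 ± 28.4 CPM (n = 5) with vehicle and 348 ± 47.6 (n = 6) with SAHA, a log2 fold change of 0.20 ± 0.09 (edgeR adjusted p = 0.224, unadjusted p = 0.0400). miR-15b-5p averaged 18.6 ± 3.95 CPM with vehicle and 24.0 ± 7.56 with SAHA, a log2 fold change of 0.36 ± 0.17 (edgeR adjusted p = 0.227, unadjusted p = 0.0414). These were the only 2 members with an unadjusted p under 0.05, against 19.4% of all names. Both were smaller without aged SAHA replicate 1, at 0.13 and 0.19. miR-16-5p differed by 0.04 ± 0.09 (95% interval -0.14 to 0.22), miR-195-5p by -0.07 ± 0.09 (-0.26 to 0.12) and miR-497-5p by -0.15 ± 0.10 (-0.35 to 0.05). DESeq2 and limma-voom each called 0 members. The median log2 fold change of the members was -0.03, and that of all names -0.0077. In CPM, 0 of 8 members separated the groups, while 4.91% of all names did.

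Between aged SAHA and young vehicle mice, miR-15a-5p was higher and miR-497-5p lower. miR-15a-5p rose from 269 ± 21.9 CPM (n = 8) to 348 ± 47.6 (n = 6), a log2 fold change of 0.37 ± 0.08 (edgeR adjusted p = 0.00363, 95% interval 0.20 to 0.54). miR-497-5p fell from 192 ± 14.5 CPM to 157 ± 21.7, a log2 fold change of -0.30 ± 0.09 (edgeR adjusted p = 0.0240, 95% interval -0.47 to -0.12). The miR-497-5p call ended when library size alone was used for scaling (-0.25, adjusted p = 0.0674), when only the 2 groups compared entered the fit (-0.26, adjusted p = 0.0612), and without aged SAHA replicate 2 (-0.23, adjusted p = 0.0596) or 5 (-0.27, adjusted p = 0.0610). The miR-15a-5p call held in all 24 alternatives, with log2 fold changes between 0.30 and 0.41.

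The other members did not pass in that comparison. miR-195-5p, the cluster partner of miR-497-5p, averaged 307 ± 27.3 CPM in young and 266 ± 32.3 in aged SAHA libraries, a log2 fold change of -0.21 ± 0.08 (edgeR adjusted p = 0.0855, 95% interval -0.38 to -0.04). It did pass with limma-voom, at -0.28 and an adjusted p of 0.0154, without aged SAHA replicate 1 and young vehicle replicate 6, at -0.28 and an adjusted p of 0.0159, and without aged SAHA replicate 1, at -0.26 and an adjusted p of 0.0259. miR-16-5p, made from the Dleu2 copy beside miR-15a and from the Smc4 copy, had a log2 fold change of 0.16 ± 0.08 (edgeR adjusted p = 0.159). miR-15b-5p had 0.25 ± 0.15 (adjusted p = 0.234).

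The comparison as a whole called 13.9% of the 509 names, with 5.3% higher and 8.64% lower, so 2 of 8 members, 1 in each direction, is a small count to set against that background. The members' median log2 fold change was 0.14, against -0.03 for all names. In CPM 1 member, miR-15a-5p, separated the groups without overlap, as did 3.54% of all names. DESeq2 called 2 members and limma-voom 3. The 13.9% is the share of edgeR and no background for those counts, and the shares of the other tools are not given for this comparison. The comparison shares its libraries with those of age and of SAHA, in which neither step passed for miR-15a-5p or miR-497-5p. Whether the age step and the SAHA step differ in size was not tested.

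**Figure D2:**
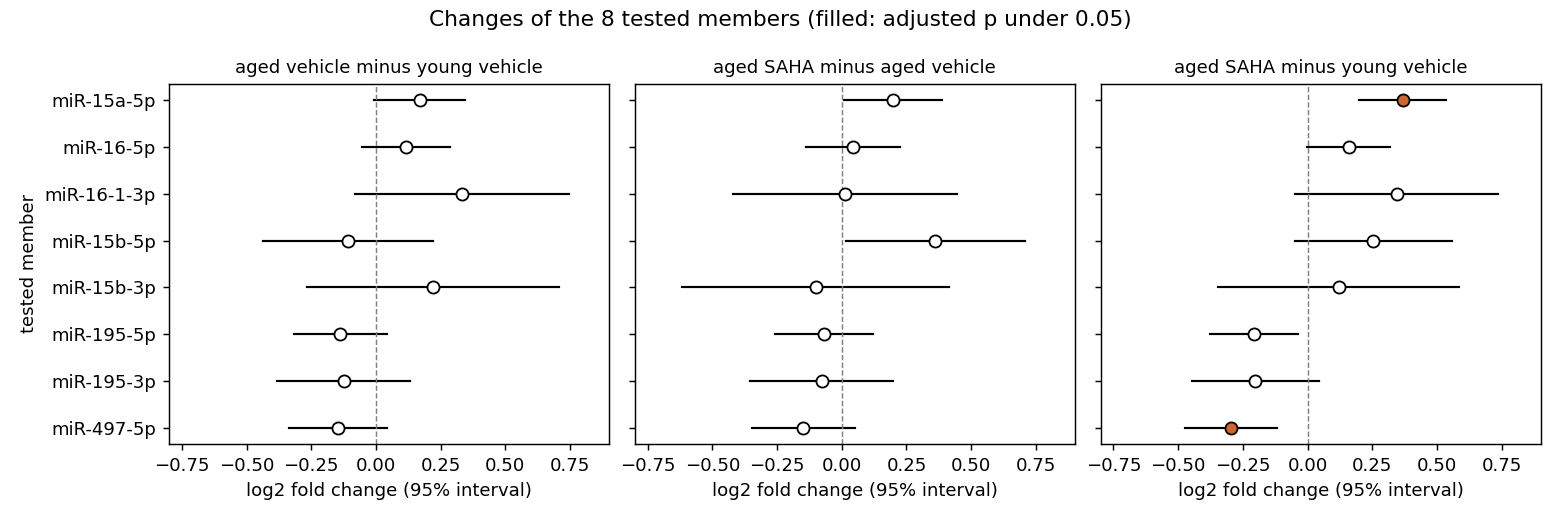
Log2 fold changes of the 8 tested members (points) with 95% intervals (lines) for age, SAHA in aged mice, and aged SAHA against young vehicle, from the fit over 509 names. Filled points passed an adjusted p of 0.05: only miR-15a-5p and miR-497-5p in the last comparison did, at 0.37 and -0.30.

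The balance between some members differed across the groups. The log2 ratio of miR-15a-5p to miR-195-5p counts, which is free of library size, averaged -0.19 ± 0.15 in young vehicle, 0.12 ± 0.09 in aged vehicle and 0.38 ± 0.13 in aged SAHA libraries. miR-15a-5p had more counts than miR-195-5p in 1 of 8 young, 4 of 5 aged vehicle and 6 of 6 aged SAHA libraries. The ratio ran from -0.36 to 0.08 in young, from -0.0059 to 0.23 in aged vehicle and from 0.25 to 0.59 in aged SAHA libraries, so the aged SAHA range lay above the others and the vehicle ranges overlapped. Against miR-497-5p the log2 ratio averaged 0.49 ± 0.13, 0.80 ± 0.12 and 1.15 ± 0.24 in the same order, and its ranges overlapped between neighbouring groups. The log2 ratio of miR-195-5p to miR-497-5p, both from chromosome 11, averaged 0.67 ± 0.07, 0.68 ± 0.08 and 0.77 ± 0.21. That of miR-15a-5p to miR-15b-5p, from different clusters, averaged 3.74 ± 0.16, 4.04 ± 0.21 and 3.897 ± 0.24, highest in the aged vehicle group. The log2 ratio of miR-16-5p, which has a copy in each of 2 clusters, to miR-15a-5p averaged 4.88 ± 0.17, 4.84 ± 0.14 and 4.68 ± 0.06. These pairs were chosen after their values were seen, so they are a description with no test.

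**Figure D3:**
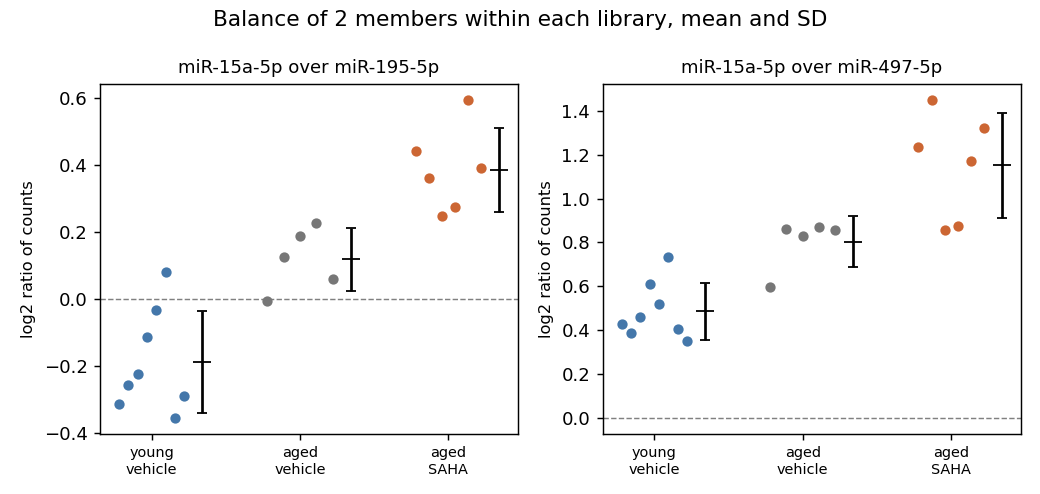
Log2 ratios of miR-15a-5p counts to miR-195-5p counts and to miR-497-5p counts, 1 point per library, with the mean and SD of each group. The 6 aged SAHA points of the ratio to miR-195-5p run from 0.25 to 0.59, above every vehicle point.

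Arm use is a property of the hairpin, since Argonaute usually keeps one strand and the other decays. Ratios were taken for miR-16 and for stems whose 5p and 3p names match and both passed the filter, 153 in all. Numbered copies of a 3p arm were summed for miR-16 only, and other stems with numbered arms were left out. The 5p arm was the more abundant in 81 of the 153, with a median log2 ratio of 0.22. miR-16 stood at the 5p end: its 5p arm was 1097 times as abundant as the summed 3p arms of its 2 copies. That was the highest ratio among these 153 stems, and miR-16 was not ranked against the stems left out. miR-195 had a ratio of 11.2 and miR-15b of 7.09. In limma's test of the log2 5p to 3p ratio 0 of 3 family stems differed with age, where 0% of all stems were called and 14 had an unadjusted p under 0.05. The test called 0 of 3 for SAHA in aged mice, where 11.1% of stems were called, and 0 of 3 for aged SAHA against young, where 10.5% were. None of the 3 had an unadjusted p under 0.05 in any comparison. The largest difference was that of miR-15b for SAHA, 0.45 ± 0.24 on the log2 scale (limma adjusted p = 0.239).

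The 3p arms of the 2 miR-16 genes can be counted apart. The arm from the Dleu2 copy, miR-16-1-3p, had more counts than that of the Smc4 copy, miR-16-2-3p, in 19 of 19 libraries. Summed over libraries there were 652 counts of the former and 104 of the latter, a ratio of 6.27. In single libraries the ratio ran from 2.91 to 43, on 1 to 11 counts of miR-16-2-3p. The same direction held for the partners, with miR-15a above miR-15b in every library. The 3p arms may decay at unlike rates, so the ratio describes the arms and not the output of the genes.

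Members of the chromosome 11 cluster varied together over libraries. For miR-195-5p the most alike of the 508 other tested names was miR-497-5p, with a Pearson r of 0.76 over 19 libraries on log2 CPM. Within groups, after group means were removed, r was 0.63, and it was 0.70 without the 2 libraries farthest from the median. The next names were miR-484 (0.74), miR-669a-5p (0.74), miR-187-3p (0.71) and miR-200b-3p (0.67), with r within groups of 0.58, 0.62, 0.69 and 0.47. miR-15a-5p and miR-16-5p had an r of 0.67 and a Spearman rho of 0.49, and r was 0.42 without the 2 farthest libraries, so that likeness rests partly on them. The most alike names to miR-16-5p were miR-24-3p (0.79), miR-26b-5p (0.76), miR-146a-5p (0.72), miR-15a-5p (0.67) and miR-146b-5p (0.65). Within groups their r was 0.73, 0.70, 0.67, 0.57 and 0.52. The most alike names to miR-15a-5p were miR-210-3p (0.87), miR-23b-3p (0.85), miR-155-5p (0.84), miR-339-5p (0.84) and miR-338-3p (0.82). Their r within groups was 0.72, 0.81, 0.64, 0.59 and 0.84. Over the 28 pairs of tested members the median r was 0.12, and over all 129286 pairs of tested names it was -0.0010. All of these points share library depth and normalization, and the values are a description.

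**Figure D4:**
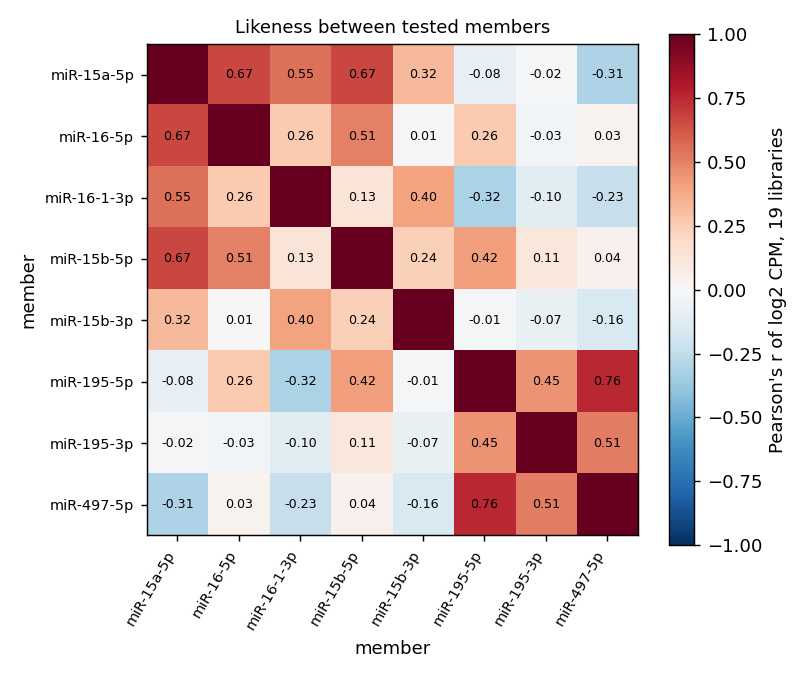
Pearson's r between the log2 CPM of each pair of the 8 tested members over 19 libraries, as a coloured grid with r written in each cell. The highest value off the diagonal is that of miR-195-5p with miR-497-5p (0.76), and the lowest is that of miR-195-5p with miR-16-1-3p (-0.32).

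The seed itself reaches beyond the family. Of 1679 mature mouse names in RefSeq, 10 carry AGCAGCA at positions 2 to 8: the 5 family 5p arms, miR-322-5p, miR-6342, miR-6353, miR-6419 and miR-195b. The last 4 are not among the names in the count tables, so they have no values here. miR-322-5p, the mouse counterpart of miR-424, is printed because it was the seed relative with a change in the vehicle mice.
miR-322-5p: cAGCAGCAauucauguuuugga
It comes from the X chromosome (chrX:53054306-53054327, minus strand) and averaged 95.2 ± 5.31 CPM in young, 66.3 ± 2.84 in aged vehicle and 62.5 ± 12.9 in aged SAHA libraries. It fell with age by 0.52 ± 0.10 on the log2 scale (edgeR adjusted p = 0.0026) and was also lower in aged SAHA than in young mice, at -0.60 ± 0.10 (adjusted p = 0.000238). In aged mice SAHA gave a log2 fold change of -0.08 ± 0.11 (adjusted p = 0.717). Its 3p arm, miR-322-3p, was lower with age as well, at -0.69 ± 0.17 (adjusted p = 0.0238).

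Since miR-322-5p is scarce, the members still supplied nearly all reads of the 6 names with this seed in the count tables. They made up 98.9% of them in young vehicle (98.7% to 99.09%), 99.3% in aged vehicle (99.25% to 99.35%) and 99.35% in aged SAHA libraries (99.03% to 99.54%). The pool of such reads averaged 8856 ± 988, 9481 ± 311 and 9758 ± 1157 CPM in the same order. miR-103-3p (3522 CPM) and miR-107-3p (779.5 CPM), whose letters AGCAGCA begin at position 1 in place of 2, were not called in any comparison. miR-503-5p averaged 0.302 CPM, and miR-1907 had no count in any library, where a count of 0 allows up to 0.837 CPM in the smallest library.

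Tissue makeup was read from marker microRNAs, and in bulk tissue fewer cells of a type and less RNA per cell cannot be told apart. The 13 neuronal names summed to between 80230 and 90401 CPM in young, 81154 and 85995 in aged vehicle and 68858 and 74567 in aged SAHA libraries. For SAHA 2 of 13 were lower, miR-128-3p (log2 fold change -0.44) and miR-9-3p (-0.28), and 2 of 13 were lower in aged SAHA against young. The median log2 fold change of the 13 for SAHA was -0.11, and miR-124-3p, also in the list, had -0.0093. The 5 oligodendrocyte names, from miR-219 and miR-338, summed to 3337 to 4511 CPM in young, 4052 to 5627 in aged vehicle and 3740 to 8102 in aged SAHA libraries. miR-338-3p alone averaged 3476 CPM over the 19 libraries, so it made up most of this sum. Of the 5 names, 1 was higher in aged SAHA than in young mice. The 4 myeloid names summed to 309 to 407 CPM, 369.8 to 529 and 356 to 767 CPM in the same order, with 1 higher in aged SAHA than in young mice. The 2 lymphocyte names summed to 662 to 731, 505 to 564 and 396 to 526.01 CPM, with 1 lower with age and 1 lower in aged SAHA against young mice. No marker of these lists was at 0 in every library, and 3 of the 4 myeloid names passed the filter.

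Every r with a marker sum given here pools the groups without removing group means, so differences between groups enter it. On that basis miR-15a-5p followed several of the sums. Over 19 libraries its r was 0.85 with the oligodendrocyte sum and 0.76 with the myeloid sum. It was 0.76 and 0.60 over the 17 libraries without aged SAHA replicate 1 and young vehicle replicate 6, which stood apart. Because the oligodendrocyte sum is mostly miR-338-3p, whose own r of 0.82 is given above, the 2 values are not separate observations. The r of miR-15a-5p was -0.71 with the lymphocyte sum and -0.59 with the neuronal sum, and -0.83 and -0.56 without those libraries. Aged SAHA replicate 1 had the highest oligodendrocyte and myeloid sums, 8102 and 767 CPM, together with the highest miR-15a-5p (428), miR-15b-5p (37.0) and miR-16-5p (10845 CPM). Without that pair of libraries the miR-15a-5p difference between aged SAHA and young mice was 0.32 on the log2 scale (edgeR adjusted p = 0.00568) and that of miR-497-5p was -0.36 (adjusted p = 0.00638). miR-195-5p also passed without them, at -0.28. miR-497-5p had an r of 0.73 with the lymphocyte sum and 0.61 with the neuronal sum, and of 0.76 and 0.67 without the pair. Lymphocyte sums of young libraries lay above all aged ones, and neuronal sums of aged SAHA libraries lay below all vehicle ones. The r values with these sums, of miR-15a-5p as well, therefore do not show that the levels vary together within a group. The part of tissue makeup in these differences was not tested. The miR-15/16 family is also abundant in red cells, and the 5 erythrocyte names summed to 2786 to 4050 CPM in young, 2622 to 3121 in aged vehicle and 2363 to 3172 in aged SAHA libraries, with 0 of 5 called in any comparison. Their sum had an r of -0.28 with miR-15a-5p and -0.44 with miR-16-5p over 19 libraries, and of -0.36 and -0.15 without the same pair. The 6 endothelial and mural names summed to 25989 to 65592, 26032 to 53181 and 26727 to 61235 CPM in young, aged vehicle and aged SAHA libraries, with 0 of 6 called. Of 10 names of choroid plexus and ciliated epithelium 7 were tested and 0 called, 1 was at 0 in every library, and their sums ran from 2433 to 3991, 2366 to 3729 and 2661 to 3794 CPM.

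**Figure D5:**
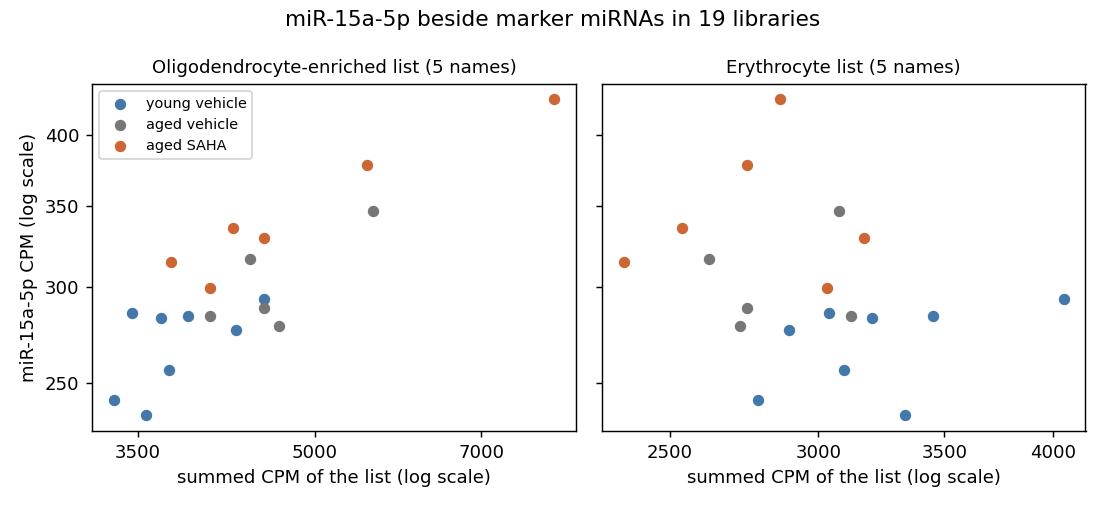
miR-15a-5p level against the summed level of the oligodendrocyte names (left) and of the erythrocyte names (right), in CPM on log axes, with 1 point per library coloured by group. The highest miR-15a-5p level, 428 CPM in aged SAHA replicate 1, lies at the highest oligodendrocyte sum, 8102 CPM, and in the middle of the erythrocyte sums.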

How the data were processed

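Small RNA libraries of 19 samples were made from 1 µg total RNA with TruSeq kits, per the labels' protocols. The deposited tables hold whole number read counts per mature microRNA, 1 table per library, and the 4 HTSeq summary lines in them were 0. Per the submitters' processing notes, the genome build was mm10 and the software included HTSeq, STAR, cutadapt and CASAVA 1.8.2. Settings, the microRNA annotation release and the treatment of reads that match more than 1 place are not given in the sources used here, so reads of near-identical members may have been lost or shared.

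Counts were filtered (filterByExpr, minimum count 10, minimum total 15), TMM-scaled and tested with edgeR 4.0.16 (R 4.3.3), using the quasi-likelihood test in 1 fit of group means over all 19 libraries, with Benjamini-Hochberg adjustment over 509 names and a threshold of 0.05. Arm ratios, log2 of 5p over 3p counts with 0.5 added to each, were tested with limma 3.58.1 over 153 stems. Stems with numbered arms, other than miR-16, were not among them. DESeq2 1.42.0 and limma-voom were alternatives. Other alternatives were DESeq2 size factors, library size, other filters, fewer groups in the fit, the replicate block and leaving libraries out. The scripts were tested on simulated data. Members were chosen by name, and all tested members were described. The 5 names most alike by Pearson r were given for the 3 members of highest level. The members and the lists of relatives and markers were chosen with earlier results of these data known. No pair of libraries of 1 group agreed within sampling noise. Sequences and positions are from RefSeq and GENCODE tables for GRCm38. The labels name no batch or sex, and neither was modelled.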

Additional observations from a re-analysis of the deposited data

Results flagged for a closer look

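miR-16-1-3p, the 3p arm of the Dleu2 copy of miR-16, stood apart in young vehicle replicate 6, at 9.48 CPM where the next highest of the 8 young libraries had 6.22 CPM. The gap was 0.570 of the group's whole range, above Dixon's 95% critical value of 0.526. Of 24 combinations of a member and a group examined, this was the only one, and chance gives about 1 in 20.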

How the results depend on the processing

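Of 538 alternative log2 fold changes of members, 520 kept their direction and their side of the threshold, and 11 changed sign, none of them in a member called in that comparison. The number of microRNAs called for age was 11, but 20 with DESeq2, 23 with limma-voom, 19 with only the groups compared and 18 without aged SAHA replicate 1 and young vehicle replicate 6. For SAHA in aged mice it was 22, but 39 with DESeq2, 46 with limma-voom, 37 without that pair, and 11 to 33 when single libraries were left out. Arm ratio calls ran from 10 to 23 for SAHA and from 10 to 20 for aged SAHA against young when single libraries were left out, and the latter were 29 without the pair. The family's share of counts was 1.43% when the 3 most abundant names were left out of the total. For SAHA, miR-16-5p was -0.0096 with limma-voom, -0.023 without the pair and -0.022 to 0.078 with single libraries left out, and miR-16-1-3p was -0.025 with limma-voom, -0.12 without the pair and -0.12 to 0.12 with single libraries left out. For aged SAHA against young, leaving out single libraries gave -0.014 to 0.25 for miR-15b-3p and -0.068 to 0.15 for the miR-15b arm ratio, which was -0.095 without the pair. The miR-195 arm ratio ran from -0.070 to 0.043 for age, -0.075 to 0.049 for SAHA and -0.084 to 0.036 for aged SAHA against young, and that of miR-16 from -0.021 to 0.13 for SAHA. The cause was not tested.

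The groups share replicate numbers, but over 16 pairs of same-numbered libraries the correlation of deviations ran from -0.32 to 0.31 (median 0.02, 4 over 0.1), so the numbers were not taken as pairing. With the number as a block the calls for age, SAHA and aged SAHA against young were 8, 15 and 58, no call of a member ended, the miR-15a-5p difference between aged SAHA and young was 0.31 (adjusted p = 0.0276), miR-16-1-3p for SAHA was -0.030, and the miR-195 arm ratio was 0.073, 0.0037 and 0.077 in the same order of comparisons. Depth limits the 3p arms, 3 of which were too scarce to test.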
